A study of Mus musculus with 8 samples.

Results

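The MYC, MAX and MXD network was followed as 10 mouse genes: Mycn, Myc, Mycl, Max, Mxd1, Mxd3, Mxd4, Mxi1, Mnt and Mlx. Members were the genes of that name reached through the RefSeq accession of a non-control array probe, which gave 12 probes among the 20660 genes named on the array. A gene was tested when 1 of its probes rose well over background on 4 or more arrays, which held for 9 members and 13539 genes in all. Mxi1 alone among the members was not tested. Expression was measured on 1-colour Agilent arrays in primary spheres grown for 8 days. Their cells came from the superior mesenteric ganglion, a sympathetic ganglion of the abdomen, of mice aged 3 weeks on the 129+Ter/SvJcl background. Spheres grew in RA (-) medium, without retinoic acid (RA), and were set against spheres in RA (+) medium, with 4 biological replicates each. Dissociated cells of a ganglion were divided between the media, so arrays with the same replicate number come from 1 animal. All 8 cultures were hemizygous for TH-MYCN, a transgene in which a tyrosine hydroxylase promoter drives human MYCN in sympathetic cells, and no culture without it was analysed here. The mouse Mycn probe need not detect that human transcript, so total MYCN of the spheres is not known from these values.

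MYC proteins bind DNA as dimers with MAX at E-box sequences and activate genes of growth and ribosome synthesis. The MXD proteins and MNT compete for MAX and recruit the SIN3 and histone deacetylase corepressors to the same sites. MLX is a second partner that binds MNT, some MXD proteins and the glucose-sensing factors MondoA (gene Mlxip) and ChREBP (gene Mlxipl). MYCN is the member amplified in aggressive human neuroblastoma, and in human neuroblastoma lines RA is known to lower MYCN while the cells differentiate.

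The E-box CACGTG, the letters that MYC-MAX and MXD-MAX dimers bind best, was searched in RefSeq promoter windows of 300 bases (250 before and 50 after each transcription start, assembly GRCm38.p6). It is its own reverse complement, so a search of 1 strand covers both. It was found in 4 of the 9 members that have a window, Max, Mlx, Mnt and Mxd4, against 8.09% of all 27025 genes with a window; Myc has no window in that table. The stretches below show these E-boxes in capitals within the bases that surround them, with up to 40 bases on each side and ending no later than the transcription start, or the E-box itself where that crosses it.
Max, chr12:76962246-76962291, minus strand: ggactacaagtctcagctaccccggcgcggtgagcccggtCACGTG
Mlx, chr11:101087210-101087289, plus strand: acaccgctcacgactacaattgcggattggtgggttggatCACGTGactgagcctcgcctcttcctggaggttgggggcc
Mnt, chr11:74830761-74830846, plus strand: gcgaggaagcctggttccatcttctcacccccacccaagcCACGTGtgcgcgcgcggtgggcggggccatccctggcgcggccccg
Mxd4, chr5:34187884-34187960, minus strand: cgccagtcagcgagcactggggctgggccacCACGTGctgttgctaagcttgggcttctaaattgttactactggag
The first letter of the E-box lay 3 bases upstream of the start in Max, 40 in Mlx, 123 in Mnt and 219 in Mxd4. Max and Mlx were called higher in RA (-) spheres and Mnt and Mxd4 lower. The Mycn window is shown because it holds, in capitals, a pair of E2F-type sites (TTTGGCGC or TTTCCCGC on either strand), letters found in 1.80% of genes and in no other member's window.
Mycn, chr12:12941957-12942059, minus strand: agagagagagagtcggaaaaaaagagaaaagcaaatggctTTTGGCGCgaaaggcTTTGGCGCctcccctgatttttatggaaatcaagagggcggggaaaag
These matches describe the letters alone. Windows of the members were also searched on both strands for the DR5 type of RA response element, which occurs in 3 of the 27025 genes and in none of the members, and nothing about RA receptors follows from its absence in so short a window.

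On the RA (-) arrays 48.5% to 55.0% of non-control spots were well above background, and on the RA (+) arrays 52.7% to 55.3%. All 8 arrays shared 1 slide and 1 scan, with RA (-) arrays in slide columns 2 and 4 and RA (+) arrays in columns 1 and 3, so slide column and medium cannot be told apart. Per the labels, 40 or 200 ng of RNA was labelled, without saying which array received which. The sympathoadrenal genes that define the labelled tissue were present: all 16 were tested, and Th, Dbh and Hand2 were well above background on all 8 arrays. They did not move together: 6 were called higher and 6 lower, with changes between −5.20 and 3.59 (log2, RA (-) minus RA (+)). Calls were common on these arrays: of all tested genes 64.3% were called, 35.9% higher and 28.4% lower. Th, the gene whose type of promoter drives the transgene, had a mean level of 7.83 in RA (-) and 4.25 in RA (+) spheres (log2 change 3.59, limma adjusted p = 5.19e-05), and Dbh, the enzyme that makes noradrenaline, 6.09 in RA (-) and 7.63 in RA (+) spheres (−1.54, limma adjusted p = 0.000267). The part of the Th change in the results below was not tested. Summed levels over the tested markers (signal in units of the array's 75th percentile) were 596 to 715 in RA (-) and 710 to 851 in RA (+) spheres for sympathoadrenal genes, and 13.5 to 17.5 against 24.9 to 27.2 for Schwann and satellite glia (12 of 15 genes tested, Erbb3 among those well above background on no array). Fibroblast markers summed to 9.80 to 14.0 against 10.1 to 13.9 (8 of 12 tested, Pdgfra and Lum well above background on no array) and immune markers to 14.9 to 17.1 against 19.3 to 24.1 (5 of 11 tested, with Ptprc, Cd14, Cd68 and Lyz2 among those well above background on no array). Endothelial markers summed to 8.81 to 10.02 against 8.63 to 10.8 (4 of 8 tested, Cdh5, Tek and Emcn well above background on no array) and adrenocortical markers to 13.2 to 18.9 against 9.07 to 11.1 (4 of 8 tested, Cyp11a1, Cyp11b1, Hsd3b1 and Mc2r well above background on no array). Such sums follow the brightest markers. Called higher and lower were 1 and 5 glial, 1 and 4 fibroblast, 0 and 3 immune, 0 and 1 endothelial, and 2 and 0 adrenocortical genes. The shares called were 50%, 62.5%, 60%, 25% and 50% in that order, against 64.3% of all tested genes. Fibroblast markers had a median change of −0.51 although their sums overlapped. The part of these other cells in the results below was not tested. In bulk samples, fewer cells of a type and less RNA per cell cannot be told apart.

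The comparison asks how this network differs when RA is left out, a condition the series describes as suited to growing TH-MYCN neuroblasts. Without RA, Mxd3 was 3.83-fold higher and Mxd4 was 1.80-fold lower, the 2 largest well-measured changes among the members, while mouse Mycn differed by less than the test could resolve. Levels are log2 processed signals minus the array's own 75th percentile, changes are RA (-) minus RA (+) with the animal as a block, and a gene is called at a limma adjusted p under 0.05 over all 13539 genes. By that rule 3 members were called higher (Mxd3, Max and Mlx) and 5 lower (Myc, Mycl, Mxd1, Mxd4 and Mnt), with a median change of −0.30 over the 9 tested members. Over all tested genes 64.3% were called, 35.9% higher and 28.4% lower, with a median change of 0.07, so a call by itself sets a member apart from few other genes. Levels of RA (-) and RA (+) spheres did not overlap for 4 of the 9 members (Myc, Max, Mxd3 and Mxd4), against 53.1% of all tested genes. Myc stands in both counts although it met the filter by its RA (+) arrays alone, so its place there is not separate support for a decrease. Different probes cannot be set against each other in level, so the members are compared only in their changes.

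**Figure D1:**
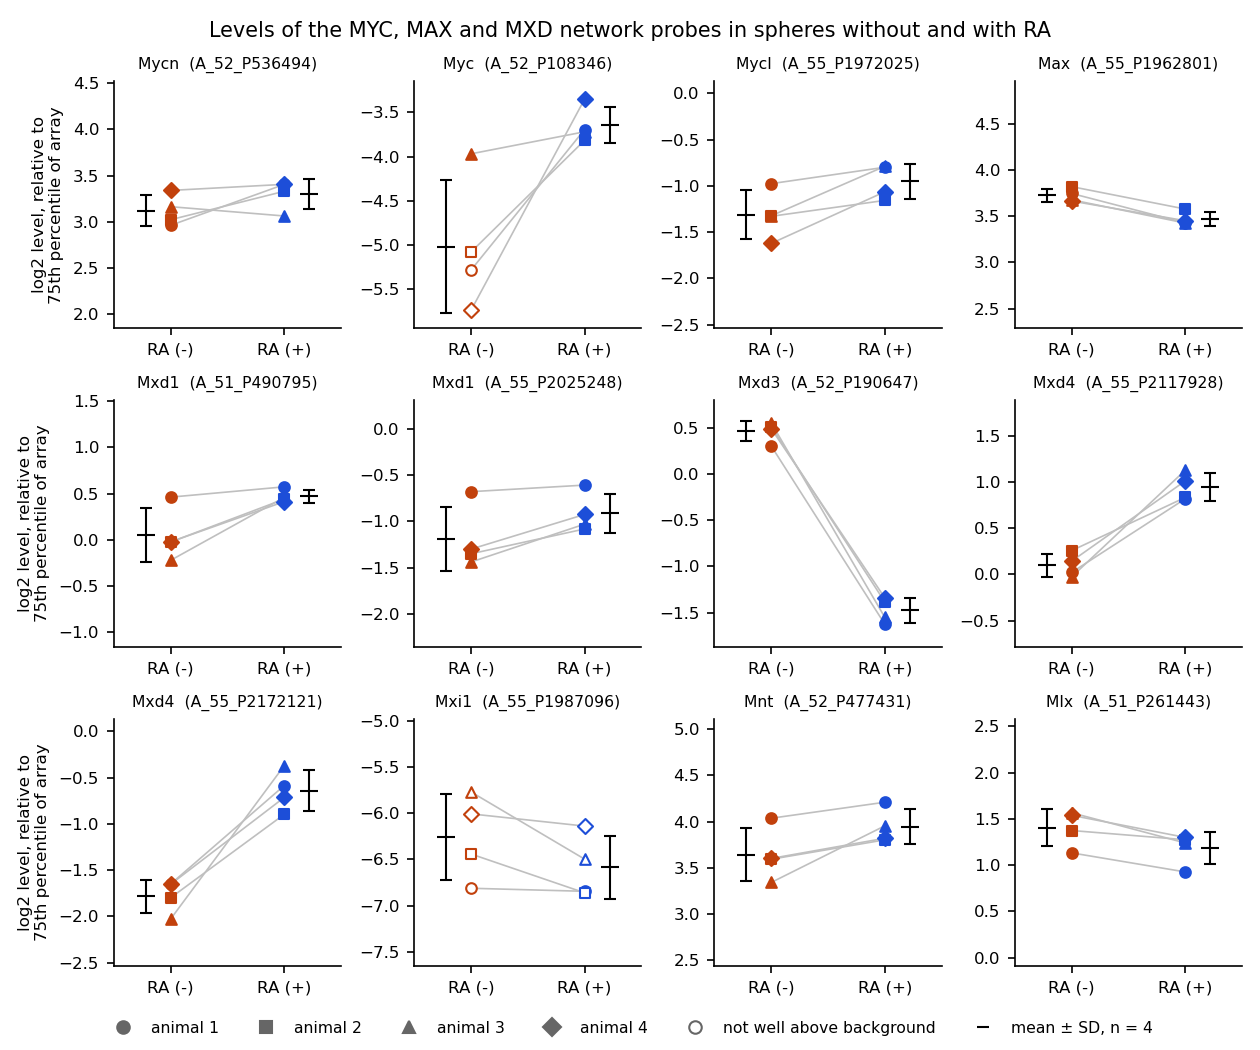
Level of each of the 12 member probes on each array (log2, relative to the array's 75th percentile), RA (-) left and RA (+) right, with grey lines joining the arrays of 1 animal, open symbols for arrays not well above background and black bars for the mean ± SD (n = 4). Each panel has its own vertical range. Mxd3 lies between 0.30 and 0.55 on the RA (-) arrays and between −1.63 and −1.34 on the RA (+) arrays, and Mycn overlaps between the media.

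Mycn (NM_008709) is the mouse counterpart of the human MYCN that gives the TH-MYCN model its name. Its levels were 2.96, 3.02, 3.16 and 3.34 in RA (-) replicates 1 to 4. In RA (+) replicates 1 to 4 they were 3.41, 3.33, 3.06 and 3.41. The groups overlapped, and RA (-) spheres were lower in 3 of 4 animals and higher in animal 3. The mean was 3.12 ± 0.17 in RA (-) and 3.30 ± 0.16 in RA (+) spheres (SD, n = 4 each), a change of −0.18 (SE 0.11, 95% confidence interval −0.45 to 0.09, limma adjusted p = 0.199). That interval leaves room for a decrease as well as for a small increase. The change had the same sign under all 14 alternatives, but several of these could not alter it. For a gene with 1 probe, other filters, no animal block, averaged probes and the robust fit leave the estimate as it is. The change was called when arrays were quantile normalized, with a normexp background (−0.32, limma adjusted p = 0.0157) or without (−0.32, 0.0463). Over all alternatives the limma adjusted p ran between 0.0157 and 0.864.

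Myc (NM_010849), the broadly expressed family member, was near the detection limit. Its processed signal was 7.57, 7.17, 16.7 and 4.38 intensity units in RA (-) replicates 1 to 4, against 23.2, 21.5, 17.3 and 29.2 in RA (+) replicates 1 to 4, on arrays with a median local background of 26 to 29 units. It was well above background on all 4 RA (+) arrays and on 1 of 4 RA (-) arrays, that of animal 3. The levels did not overlap, but the gap was only that between −3.97 in RA (-) replicate 3 and −3.82 in RA (+) replicate 2. Myc met the filter by its 4 RA (+) arrays alone, so neither gap nor call is separate support for a decrease. It was called lower with a fitted change of −1.37 (SE 0.33, limma adjusted p = 0.0128). The size cannot be taken as exact: with normexp and quantile normalization together it was −0.23, still called (limma adjusted p = 0.0255). The change was −1.75 without animal 3 and −1.03 without animal 4.

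Mycl (NM_008506), the third family member and one first found in lung cancer, had levels of −0.98, −1.33, −1.32 and −1.62 in RA (-) spheres, against −0.80, −1.16, −0.79 and −1.06 in RA (+) spheres. It was lower in 4 of 4 animals, with overlap between the groups because RA (-) replicate 1 lay above RA (+) replicates 2 and 4. The change was −0.36 (SE 0.10, limma adjusted p = 0.0231). The call was lost without the animal block (limma adjusted p = 0.0628), with spike-in scaling (0.535), with no filter on dim probes (0.0535), and without replicate 3 (0.0688) or 4 (0.0932). Of the 3 MYC genes of the mouse, none was therefore called higher in RA (-) spheres, under the scaling used here or under any alternative that gave a value.

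Max (NM_008558), the obligate partner of MYC and MXD proteins, had levels of 3.75, 3.82, 3.68 and 3.66 in RA (-) spheres, against 3.43, 3.58, 3.43 and 3.45 in RA (+) spheres. It was higher in 4 of 4 animals without overlap. The change was small, 1.19-fold (log2 0.26, SE 0.07, limma adjusted p = 0.0175), and 67.0% of tested genes had a larger one. The call was lost under 7 of the 14 alternatives, among them quantile normalization alone (0.091, limma adjusted p = 0.284) or together with normexp (0.10, 0.188), and spike-in scaling (0.35, 0.392), and without replicate 1, 2 or 4 (limma adjusted p = 0.0679, 0.0639 and 0.0612). Mlx (NM_011550) had levels of 1.13, 1.37, 1.57 and 1.54 in RA (-) spheres, against 0.93, 1.28, 1.24 and 1.30 in RA (+) spheres. It was higher in 4 of 4 animals with overlap between the groups. Its change of 0.22 (SE 0.07, limma adjusted p = 0.0421) was called in the fit of 1 probe per gene. It missed the threshold in the fit of all probes (0.0597) and under 11 of the 14 alternatives, including each one that left out an animal.

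Mxd3 (NM_016662) encodes the MXD protein that is known in mouse tissues to appear in dividing cells, in contrast to the others, which mark differentiating ones. Its levels were 0.30, 0.51, 0.55 and 0.49 in RA (-) spheres, against −1.63, −1.39, −1.55 and −1.34 in RA (+) spheres. The groups were separated by more than 1 log2 unit and every animal had the same direction. The change was 1.94 (SE 0.08, 95% confidence interval 1.75 to 2.13, limma adjusted p = 5.37e-05), and 5.88% of tested genes had a larger one. It was called under all 14 alternatives, with values of 1.47 to 2.03. The 16 proliferation genes set beside it were all called higher, against 35.9% of all tested genes, with a median change of 1.90. Highest were Birc5 (2.31), Cdk1 (2.30), Ccnb1 (2.26) and Kif11 (2.25), genes of mitosis. Any part of cell division in the change of Mxd3 was not tested.

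Mxd4 (NM_010753), an MXD protein of differentiating cells, went the other way. By its brighter probe the levels were 0.02, 0.26, −0.03 and 0.14 in RA (-) spheres, against 0.82, 0.83, 1.13 and 1.01 in RA (+) spheres, without overlap. The change was −0.85 (SE 0.11, limma adjusted p = 0.00118). The second probe of the gene had levels of −1.65, −1.80, −2.03 and −1.65 in RA (-) and −0.59, −0.90, −0.37 and −0.72 in RA (+) spheres, and a change of −1.14 (SE 0.15, limma adjusted p = 0.00148 in the fit of all probes). Mxd4 stayed called under all 14 alternatives, with values of −0.99 to −0.74.

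Mxd1 (NM_010751), the founding member of the MXD group, had levels of 0.46, −0.02, −0.22 and −0.02 in RA (-) spheres, against 0.57, 0.44, 0.46 and 0.41 in RA (+) spheres. It was lower in 4 of 4 animals, and RA (-) replicate 1 lay within the RA (+) range. The change was −0.42 (SE 0.11, limma adjusted p = 0.0158), with −0.28 by the second probe (SE 0.09, limma adjusted p = 0.0404 in the fit of all probes). The call was lost under spike-in scaling (limma adjusted p = 0.429) and without replicate 2 (0.0600) or 4 (0.0562). Mnt (NM_010813), the most widely expressed antagonist of MYC, had levels of 4.04, 3.59, 3.34 and 3.60 in RA (-) spheres, against 4.21, 3.80, 3.96 and 3.82 in RA (+) spheres. It too was lower in 4 of 4 animals with overlap, by −0.30 (SE 0.10, limma adjusted p = 0.0385). Its call was lost under 7 of the 14 alternatives, including each one that left out an animal and the fit without the animal block (limma adjusted p = 0.124). Mxi1, also called MXD2, was well above background on none of the 8 arrays by its 1 probe and has no measured change.

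**Figure D2:**
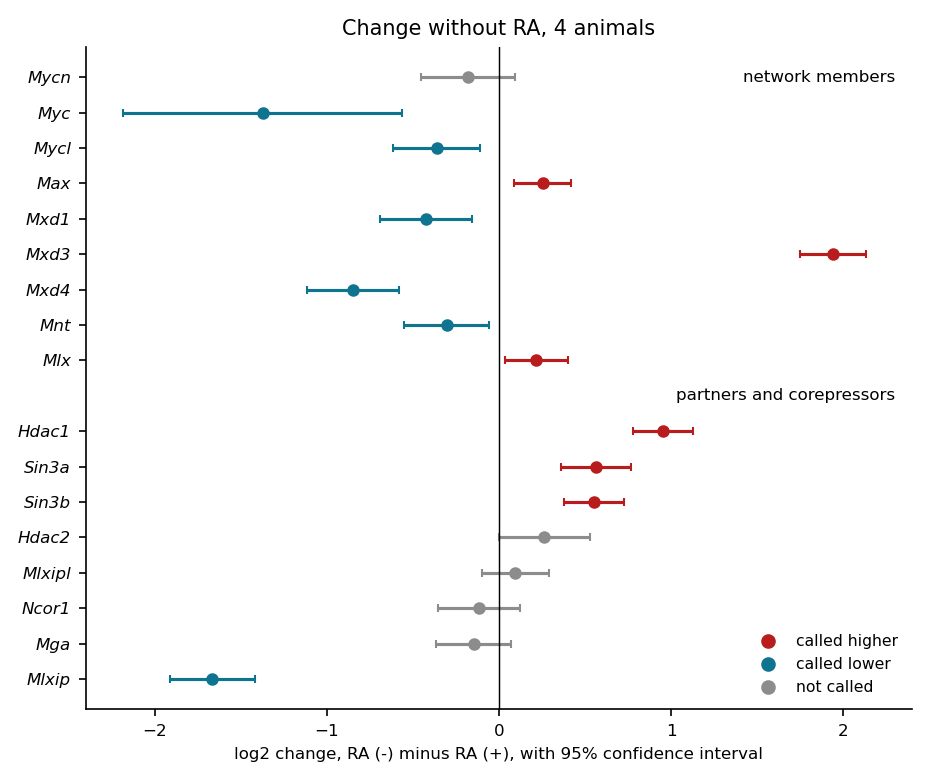
Change in RA (-) minus RA (+) spheres (log2, points with 95% confidence intervals from the limma fit, 4 animals) for the 9 tested members above and 8 partners and corepressors below. Mxd3 stands at 1.94, Mxd4 at −0.85 and Mlxip at −1.66, while the interval of Mycn includes 0.

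In a change relative to Max on the same arrays, a single scaling factor per array cancels, whereas quantile normalization, which is not such a factor, does not. The change of Mycn minus that of Max was −0.44 ± 0.27 (SD over 4 animals), below 0 in 4 of 4 animals. Mycl (−0.62 ± 0.19), Mxd1 (−0.68 ± 0.21), Mnt (−0.56 ± 0.20) and Mxd4 (−1.10 ± 0.24) also fell short of Max in every animal, as did Myc, whose fitted value is imprecise. Mxd3 exceeded Max by 1.68 ± 0.11 and Mxd4 by 2.79 ± 0.33, again in 4 of 4 animals each. Each of these had an exact two-sided sign-flip p of 0.125, the smallest that 4 animals allow, and 0.139 after Benjamini-Hochberg adjustment over 10 such differences. For Mlx the difference from Max was −0.04 ± 0.11 (n = 4), positive in 2 of 4 animals (exact two-sided sign-flip p = 0.5).

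**Figure D3:**
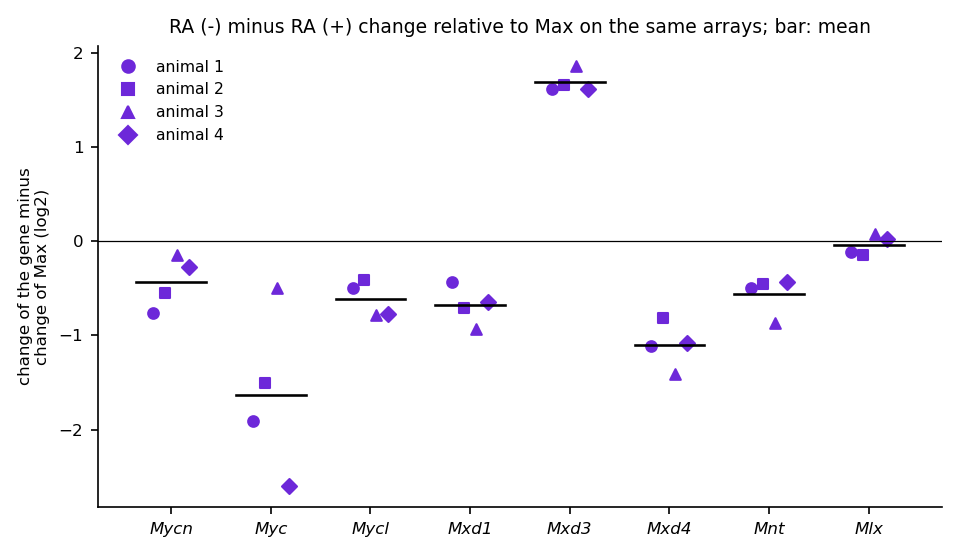
Change of 8 members minus the change of Max on the same arrays (log2, RA (-) minus RA (+)), with 1 symbol per animal and a bar for the mean of 4 animals. Mxd3 lies between 1.61 and 1.85, Mlx on both sides of 0, and the other 6 below 0 in every animal.

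Among the partners and corepressors outside the 10 genes, 9 of 10 were tested, with 3 called higher, 1 lower and a median change of 0.10. The share called was 44.4%, against 64.3% of all tested genes. Zbtb17 was too dim to be tested. Mlxip, which encodes the MLX partner MondoA, had levels of −1.97, −2.51, −2.62 and −2.20 in RA (-) spheres, against −0.54, −0.58, −0.91 and −0.61 in RA (+) spheres. The groups lay more than 1 log2 unit apart, and the change was −1.66 (SE 0.10, limma adjusted p = 0.000115). The change of Mlx exceeded that of Mlxip by 1.88 ± 0.19 (SD), in 4 of 4 animals; its exact sign-flip p, two-sided, was also 0.125. Mlxipl, which encodes ChREBP, was not called (0.10, SE 0.08, limma adjusted p = 0.320), and its sign turned under 4 of the 14 alternatives.

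Under the scaling used here, corepressor genes were higher or not called. Hdac1, a histone deacetylase, had levels of 5.23, 5.43, 5.46 and 5.41 in RA (-) spheres, against 4.34, 4.50, 4.40 and 4.48 in RA (+) spheres, without overlap. It rose by 0.95 (SE 0.07, limma adjusted p = 0.000199), with 0.95 by each of its 3 probes. Sin3a, the scaffold that MXD proteins bind, rose by 0.56 (SE 0.08, limma adjusted p = 0.00200), a call lost under spike-in scaling (0.0732). Its paralog Sin3b rose by 0.55 (SE 0.07, limma adjusted p = 0.00116) by its brighter probe but had −0.02 by the other, and the call was lost under quantile normalization (0.19, limma adjusted p = 0.0745) and spike-in scaling (0.0787). Not called were Hdac2 (0.26), Ncor1 (−0.11, with probes from −0.22 to 0.26) and Mga (−0.15), which encodes a large MAX-binding repressor. Mga was called lower under 1 of the 14 alternatives (limma adjusted p = 0.0409).

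Of the genes that MondoA and MLX are known to drive, 4 of 6 tested were called lower and 2 higher, with a median change of −0.88. Over all tested genes 64.3% were called, 28.4% lower and 35.9% higher, and a list of 6 genes is short. Txnip, an inhibitor of thioredoxin and of glucose uptake, is the standard MondoA target. Its levels were −1.66, −1.43, −2.07 and −1.78 in RA (-) spheres, against 1.48, 1.50, 1.47 and 1.72 in RA (+) spheres, far from overlap. It was 9.71-fold lower (log2 −3.28, SE 0.12, limma adjusted p = 5.05e-05; −2.80 by another probe). Its promoter is shown because it holds the carbohydrate response element, a pair of E-box-like sites a few bases apart, found on either strand in 15 of 27025 genes. The element is in capitals.
Txnip, chr3:96557832-96557928, plus strand: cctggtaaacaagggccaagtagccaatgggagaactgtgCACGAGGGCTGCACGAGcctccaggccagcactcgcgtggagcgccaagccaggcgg
Arrdc4, an arrestin family gene close to Txnip in sequence, had levels of 0.01, 0.34, 0.17 and 0.21 in RA (-) spheres, against 0.82, 1.08, 1.29 and 1.08 in RA (+) spheres. It changed by −0.89 (SE 0.09, limma adjusted p = 0.000496), and by −1.90 by another probe. Its promoter window held no full element of that kind and 1 plain E-box.
Arrdc4, chr7:68749386-68749471, minus strand: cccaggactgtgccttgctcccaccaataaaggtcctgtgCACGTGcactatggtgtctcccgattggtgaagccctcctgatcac
Pfkfb3 (−0.96, or −0.64 by another probe) and the repressor gene Klf10 (−0.88) were the other 2 called lower. Hk2, a hexokinase that MYC proteins also activate, had levels of −0.19, −0.43, −1.21 and −0.66 in RA (-) spheres, against −3.50, −3.26, −3.61 and −3.99 in RA (+) spheres. It rose by 2.96 (SE 0.17) and Arrdc3 by 0.41 (SE 0.09), though Arrdc3 was not called under spike-in scaling (limma adjusted p = 0.192). Hk2 was well above background on every array but dim on the RA (+) arrays, so the size of its change is not exact. With normexp and quantile normalization together it was 1.51, still called. The count of 4 lower genes was the same under all 14 alternatives.

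Genes that MYC proteins activate were mostly higher in RA (-) spheres. Of 30 tested, 27 were called higher, 2 lower and 1 not called, with a median change of 0.79. The share called was 96.7%, against 64.3% of all tested genes, of which 35.9% were higher and 28.4% lower. Mcm7, part of the replicative helicase, had levels of 6.02, 6.35, 6.43 and 6.25 in RA (-) spheres, against 4.49, 4.64, 4.47 and 4.83 in RA (+) spheres. It rose by 1.66 (SE 0.11), Rcc1, the exchange factor of the RAN GTPase, by 1.40 (SE 0.08), Odc1, the first enzyme of polyamine synthesis, by 1.29 (SE 0.07) and Tfrc, the transferrin receptor, by 1.19 (SE 0.11). The 2 called lower were Ccnd2 (−0.58) and Tert (−0.53), neither of them under spike-in scaling. Of the 24 genes of this list with a promoter window, 7 held CACGTG, Cdk4 among them, against 8.09% of all 27025 genes with a window. The list holds several genes of dividing cells, and the proliferation genes rose beside it; their part in the count was not tested.

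Of the genes that MYC proteins are reported to repress, 5 of 17 tested were called higher and 5 lower, with a median change of −0.13. The share called, 58.8%, was near the 64.3% over all tested genes, of which 35.9% were higher and 28.4% lower. The lower ones included 2 members of the N-myc downstream-regulated family. Ndrg4 had levels of 3.86, 3.33, 2.72 and 3.13 in RA (-) spheres, against 5.77, 6.01, 5.76 and 5.75 in RA (+) spheres, a change of −2.56 (SE 0.18, limma adjusted p = 0.000184). Ndrg2 had levels of 1.33, 0.93, 0.39 and 0.55 in RA (-) spheres, against 3.25, 3.31, 3.30 and 3.13 in RA (+) spheres, a change of −2.45 (SE 0.16, limma adjusted p = 0.000150). In both genes every RA (-) level lay more than 1 log2 unit below every RA (+) level, whereas Ndrg1, the family's best known member, was not called (−0.31, limma adjusted p = 0.0686). Ngfr, the low-affinity neurotrophin receptor, which Schwann cells also make, had a change of −2.39 (SE 0.14). Called higher were the collagen gene Col1a2 (1.03), the cell cycle inhibitor genes Cdkn2b (0.85) and Cdkn1b (0.30), the stress gene Gadd45a (0.28) and the integrin gene Itgb1 (0.26). Cdkn1b and Gadd45a lost their calls under 5 and 4 of the 14 alternatives, spike-in scaling among both. For Itgb1 the separate values under the alternatives are not given here.

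**Figure D4:**
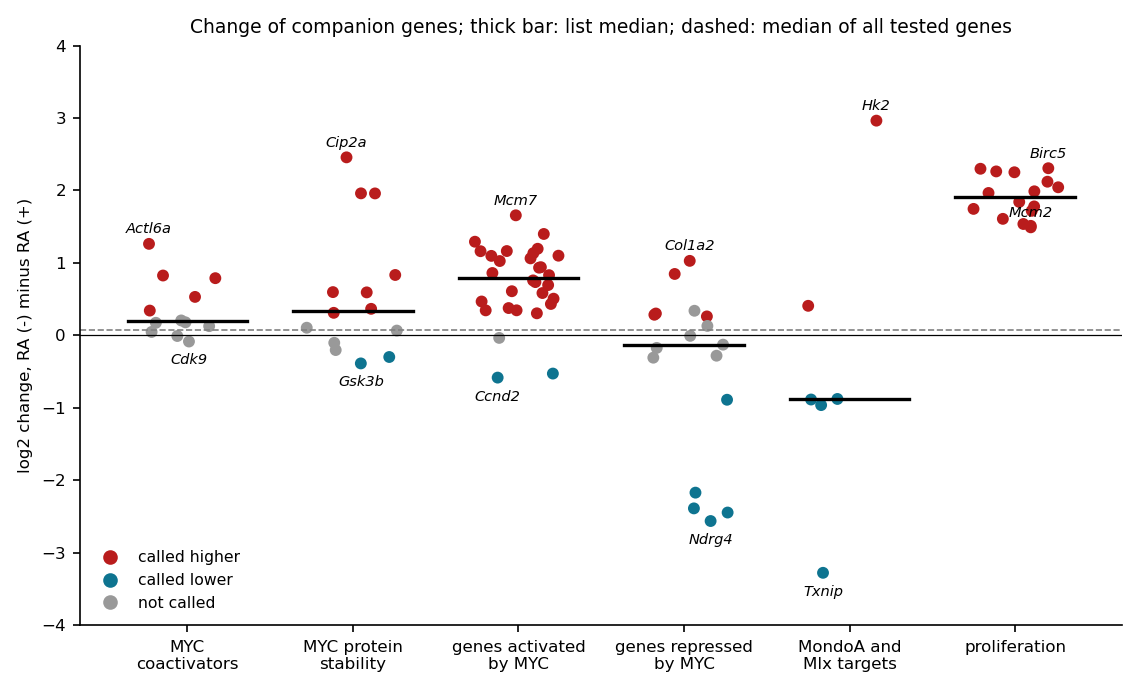
Change of each tested gene (log2, RA (-) minus RA (+)) in 6 lists around the network, coloured by call, with the list median as a thick bar and the median of all tested genes, 0.07, dashed. The proliferation list lies wholly above 0, the genes repressed by MYC on both sides, and Txnip is lowest at −3.28.

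Of the genes that MYC proteins use as coactivators, 5 of 12 were called higher and none lower, with a median change of 0.19. That is 41.7% called, against 64.3% of all tested genes called and 35.9% called higher. By limma, at an unadjusted p under 0.05 none was lower either. Actl6a, a subunit shared by chromatin remodelling and acetylase complexes, rose by 1.26 (SE 0.14), the helicase genes Ruvbl2 and Ruvbl1 by 0.82 (SE 0.07) and 0.79 (SE 0.07), and Wdr5, a histone-binding cofactor of MYC, by 0.53 (SE 0.08). Trrap, the acetylase scaffold that MYC binds directly, was not called (0.05).

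Genes that set the stability of MYC proteins had 8 called higher and 2 lower among 14 tested, with a median change of 0.34. The share called, 71.4%, was near the 64.3% over all tested genes. Skp2 was well above background on no array. Aurka, the kinase that shields MYCN protein from degradation, rose by 1.96 (SE 0.10, limma adjusted p = 9.34e-05), and Plk1, a mitotic kinase that also stabilises MYCN, by 1.96 (SE 0.08). Both are mitotic genes as well and changed with the proliferation list. Cip2a encodes an inhibitor of the phosphatase that destabilises MYC. It was well above background on all 4 RA (-) arrays and on 1 of 4 RA (+) arrays. Its fitted change of 2.46 was 0.70 with normexp and quantile normalization together. Cip2a met the filter by its RA (-) arrays alone, so its call is not separate support for a rise. Set, another inhibitor of that phosphatase, rose by 0.83 (SE 0.07, 0.53 to 0.88 over its 3 probes). Gsk3b, the kinase that marks MYC proteins for degradation, and Ppp2r5a, a phosphatase subunit, were called lower (−0.39 and −0.30), calls that were lost under 6 and 3 of the 14 alternatives. Fbxw7, the ubiquitin ligase subunit that reads the GSK3 mark, was not called (0.10, limma adjusted p = 0.352).

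**Figure D5:**
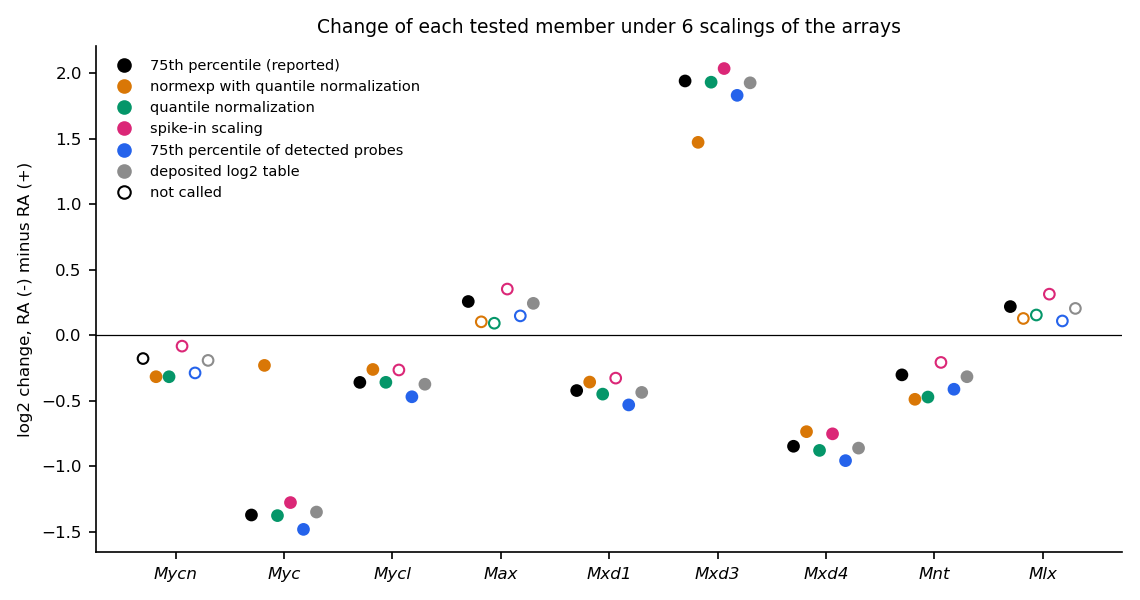
Change of each tested member (log2, RA (-) minus RA (+)) under 6 scalings of the arrays, filled where called and open where not. Mxd3, Mxd4 and Myc are called under all 6, Mycn under 2, and no member changes sign.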

How the data were processed

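Per the file headers, the authors scanned the arrays on 1 slide and extracted intensities with Agilent Feature Extraction 11.5.1.1; the processed intensity in the deposited scanner output had local background and spatial trend removed. A further deposited table gives log2 values centred on each probe's mean over the arrays, whose scaling steps are not known. Its columns had medians of −0.07, 0.01, 0.17 and 0.20 for RA (-) and −0.23, −0.22, 0.02 and −0.01 for RA (+) replicates 1 to 4. Per array, its values correlated with the centred values used here by 0.99994 to 0.99996 (Pearson). Its median change over all genes was 0.05, against 0.07. As an alternative it is therefore close to a repeat of the scaling used here, not a separate check. The deposited 0 or 1 flags of spots were used as other measures.

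From these, log2 processed intensities minus the array's 75th percentile were averaged over the spots of a probe; 64 probes with outlier spots were left out and no spot was saturated. Probes were named through RefSeq accessions (27235 of 55681 matched), kept if well above background on 4 arrays, and the brightest probe stood for a gene. Spot counts give no depth; the number of arrays limits precision. R 4.3.3 and limma 3.58.1 gave the changes, blocked on the animal, with Benjamini-Hochberg adjustment, after a test on simulated data. The pairing comes from the series' design. Deviations of paired arrays correlated by 0.52, 0.30, 0.19 and 0.33 for animals 1 to 4. The best correlation of each RA (-) array with an RA (+) array of another animal was −0.05, −0.07, 0.13 and −0.05. The pair of animal 3 thus stood out least. The members and lists were chosen with earlier results of these data known. A few genes that the rule would name are not reported here. Named were all members and other partners and MondoA targets, and in each other list up to 4 called genes per direction with the largest change. Itgb1, Ndrg1, Trrap, Fbxw7, Cdk4 and Skp2 fall outside that rule and were chosen after their values were seen. Normexp (offset 50) used the median spot signal, as the mean was not among the columns used here.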

Additional observations from a re-analysis of the deposited data

Results flagged for a closer look

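The level of Mlx in RA (+) replicate 1, 0.93, lay far from those of the other RA (+) arrays, of which the nearest was 1.24. The level of Max in RA (+) replicate 2, 3.58, stood above the other RA (+) arrays, of which the nearest was 3.45. Both were found by Dixon's ratio of the gap to the range for 4 arrays, past its 95% critical value, over 24 groups of 4 arrays, and chance flags about 1 in 20 such groups. Without animal 1 the change of Mlx was 0.22 (limma adjusted p = 0.103), and without animal 2 the change of Max was 0.26 (0.0639).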

How the results depend on the processing

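Over 14 alternatives Mxd3 (1.47 to 2.03) and Mxd4 (−0.99 to −0.74) kept their calls, and Myc kept its call in the 13 that gave a value, since it drops out when all 8 arrays must be well above background. The calls of Mlx, Mnt, Max, Mycl and Mxd1 were lost in 11, 7, 7, 5 and 3 of 14. The cause was not tested. Dim signals (Myc, Cip2a, and Hk2 in RA (+) spheres) have no exact size. The arrays of 1 medium alone took Myc and Cip2a past the filter, so the calls of these genes are not separate support. The median change over all genes was −0.04 with the 75th percentile of detected probes, against 0.07. The share of calls that were higher was 55.9% and ran between 46.3% and 59.3%. With the normexp background and quantile normalization, 1 member was higher, Mlx was 0.13, Mycn −0.32 (now called) and Max 0.10; 2 partners, 1 coactivator and 4 stability genes were lower, and 3 genes repressed by MYC were higher; Mlxipl turned to −0.016. With quantile normalization alone, 1 member was higher, Mlx was 0.15, Mycn −0.32 (now called) and Max 0.091; 2 partners and 4 stability genes were lower, 3 repressed genes higher and Mlxipl was −0.0065. Scaling on 8 spike-in probes left 4220 genes called, 2345 higher and 1875 lower, against 8703, 4862 and 3841. There 1 member was higher and 2 lower, with Mlx at 0.31, Mnt −0.21, Mxd1 −0.33, Mycl −0.27 and Max 0.35; 1 partner, 3 coactivators, 4 stability genes, 2 repressed genes and 1 MondoA target were higher, and 0 stability and 0 activated genes lower by limma. With the 75th percentile of detected probes, 1 member and 2 repressed genes were higher, 3 partners lower, Mlx was 0.11, Max 0.15 and Mlxipl −0.014; averaging the probes of a gene gave Mlxipl −0.080, against 0.096. In the deposited log2 table Mlx was 0.20. With no filter on dim probes, 3 members and 1 stability gene were lower, and Mlx (0.22), Mnt (−0.30) and Mycl (−0.36) lost their calls. Without the replicate block, 3 members and 1 stability gene were lower, and the same 3 changes, 0.22, −0.30 and −0.36, lost their calls, the block changing no other member's call. Leaving out each animal in turn gave 7349 to 8217 calls over all genes, 4050 to 4617 higher and 3264 to 3600 lower, 1 to 2 members higher and 2 to 4 lower, 0 to 2 stability genes lower and 2 to 4 repressed genes higher. The changes then ran from 0.18 to 0.26 for Mlx, −0.35 to −0.20 for Mnt, −0.53 to −0.34 for Mxd1, −0.42 to −0.29 for Mycl and 0.24 to 0.27 for Max.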
